A study of Mus musculus with 8 samples.

Results

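A set of 10 genes of the provisional matrix and its matricellular proteins was followed in lungs from mouse marrow chimeras given diphtheria toxin. They were chosen by name (Fn1, Vcan, Tnc, Thbs1, Thbs2, Spp1, Postn, Sparc, Lox and Eln), and a probe belonged to a gene when the array files gave it that gene name. The 10 genes were among 25830 genes tested and were covered by 24 probes, all of which passed the filter on dim probes (well above background in both mice of any 1 group).

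All animals were male mice of 22 weeks whose lungs were taken 72 hours after the toxin, so no lung without toxin was available for comparison. LysM-DTR mice carry the diphtheria toxin receptor under the lysozyme M promoter, which is active in neutrophils, monocytes and macrophages, and also in alveolar type 2 cells of the lung. The first letter of a group names the marrow donor and the second the recipient. LL mice were LysM-DTR in both, WL mice were LysM-DTR recipients of wild-type (WT) marrow, LW mice were WT recipients of LysM-DTR marrow, and WW mice were WT in both. Each group had 2 mice with 1 array each of whole-lung total RNA, and p-values measure the spread between these mice. Each level is the log2 processed intensity minus the array's 75th percentile, so 1 unit is a doubling.

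The 75th percentile of the 8 arrays lay between 208.6 and 324.4 intensity units, and 66.3% to 72.3% of spots were well above background. The arrays shared 1 slide and 1 scan, with LL and WL in one column and LW and WW in the other, and with LysM-DTR donors in places 1 and 2 of each column and WT donors in places 3 and 4. Recipient genotype and slide column, and donor genotype and place, therefore cannot be told apart. The labelled tissue was lung, and all 6 alveolar type 2 markers were above background on every array. WL replicates 1 and 2 differed by more than 1 log2 unit in 17.5% of genes, against 3.52% for the LL pair, 2.89% for the LW pair and 2.59% for the WW pair. The 10 genes are therefore also given without the WL arrays for LL against WW, LL against LW and LW against WW, and the related lists and markers for LL against WW.

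When vessels leak, fibronectin joins fibrin and hyaluronan-bound versican in a temporary scaffold on which cells adhere and migrate. Tenascins, thrombospondins, osteopontin, periostin and SPARC are matricellular proteins, which are secreted into the matrix and act mainly on cell adhesion and signalling rather than as load-bearing fibres. Elastin is the recoil protein of alveolar walls and airways, and lysyl oxidase crosslinks it and collagen.

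The sequences of 6 probes are printed here. Those of Thbs2 and of Vcan at base 1428 stood for their genes in the tests, and the others are further probes of their genes, whose values are set beside the tested ones. The Fn1 probes lie far apart along the transcript, the Vcan probes disagree in size between the WL mice, and Tnc separated those mice most. Positions are on mm9 as the array annotation gives them, and all letters are in lower case because no stretch is singled out. All positions but that of Vcan base 1428 cover more than the 60 bases of the probe, so these probes join separate genomic blocks. The annotation of exons and UTRs was not used here.
Fn1, transcript base 769, chr1:71694694-71695800, minus strand: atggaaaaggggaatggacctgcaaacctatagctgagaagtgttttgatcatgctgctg
Fn1, transcript base 7252, chr1:71637422-71639659, minus strand: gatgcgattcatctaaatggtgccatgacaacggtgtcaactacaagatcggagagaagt
Vcan, transcript base 459, chr13:89865266-89871120, minus strand: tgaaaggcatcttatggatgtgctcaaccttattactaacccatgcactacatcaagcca
Vcan, transcript base 1428, chr13:89851810-89851869, minus strand: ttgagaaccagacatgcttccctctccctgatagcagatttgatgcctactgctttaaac
Tnc, transcript base 2590, chr4:63674248-63675011, minus strand: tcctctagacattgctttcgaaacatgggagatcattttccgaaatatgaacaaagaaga
Thbs2, transcript base 3843, chr17:14804526-14805789, minus strand: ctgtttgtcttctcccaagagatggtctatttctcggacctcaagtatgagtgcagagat

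On the tested probes, both LL lungs lay above both WW lungs for 8 of the 10 genes (37% of all genes). They lay below them for Postn and Spp1 (32.4% of all genes), while the WL lungs did not behave alike. WL replicate 2 had the highest level of all 8 lungs for 6 of the 10 genes, Fn1, Vcan, Tnc, Thbs1, Thbs2 and Spp1 (24.1% of all genes), whereas WL replicate 1 lay inside the range of the LW and WW lungs for Vcan, Thbs1, Postn and Sparc. None of the 10 genes passed the test between LW and WW lungs, beside 0.0542% of all genes. The plot of levels by mouse shows all 10 genes.

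**Figure D1:**
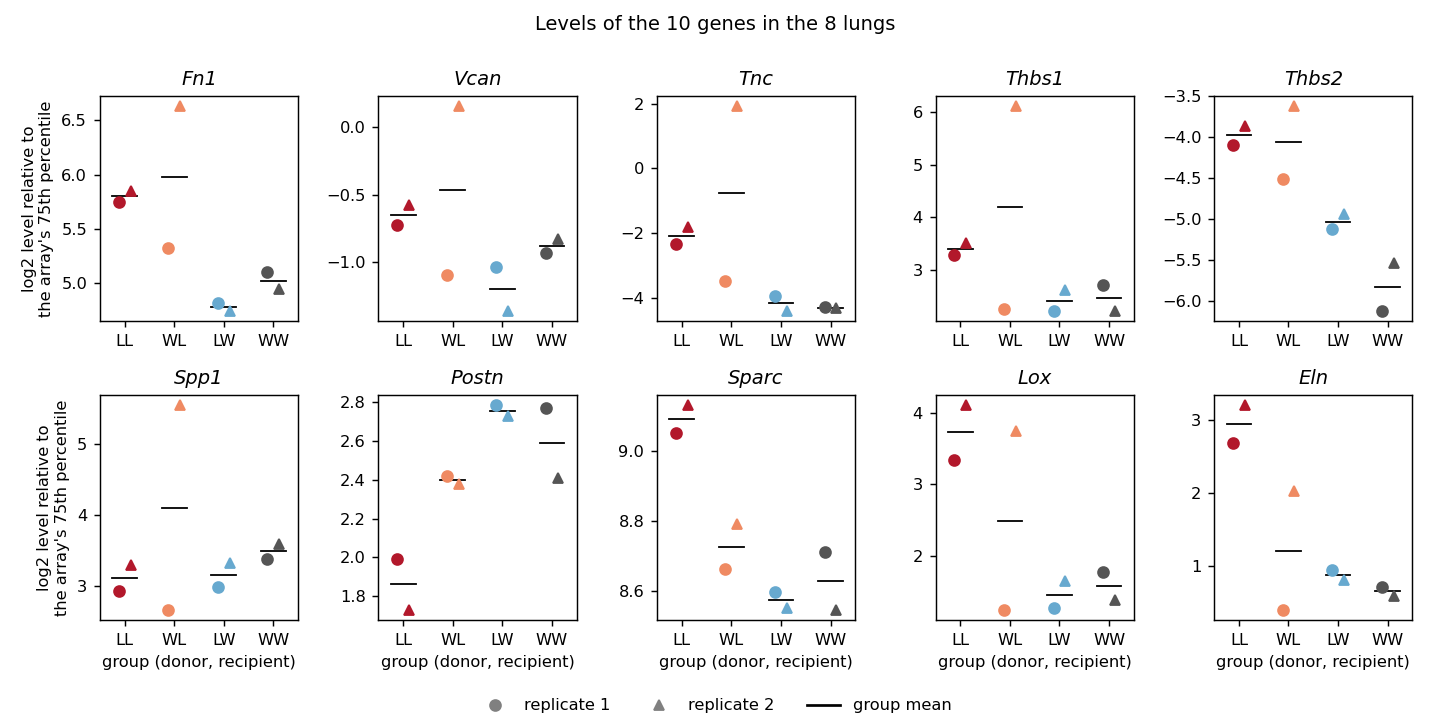
Level of each of the 10 genes in the 8 lungs, as log2 intensity relative to the array's 75th percentile (y axis, its own range in each panel), by group (x axis, donor then recipient). Circles are replicate 1, triangles replicate 2 and lines the group means. WL replicate 2 is the top point for Fn1, Vcan, Tnc, Thbs1, Thbs2 and Spp1, and LL replicate 2 is the top point for Sparc, Lox and Eln.

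Fn1 encodes fibronectin, the adhesive glycoprotein of the provisional matrix. Its level was 5.75 and 5.85 in LL lungs, 5.32 and 6.63 in WL lungs, 4.81 and 4.74 in LW lungs, and 5.10 and 4.94 in WW lungs. All 4 lungs of LysM-DTR recipients were above all 4 lungs of WT recipients, and WL replicate 2 was the highest. Fn1 averaged 5.80 ± 0.069 in LL lungs and 5.02 ± 0.11 in WW lungs (SD, n = 2 each), which is 1.72-fold and exceeded the spread within either pair. WL lungs averaged 5.98 ± 0.93, a spread that covers the LL mean. The printed probe at transcript base 769 read 0.79 and 0.87 in LL lungs, 0.36 and 1.18 in WL lungs, 0.09 and -0.03 in LW lungs, and 0.25 and 0.30 in WW lungs. The printed probe at base 7252 read 2.15 and 2.26 in LL lungs, 1.496 and 2.60 in WL lungs, 1.13 and 1.07 in LW lungs, and 1.44 and 1.33 in WW lungs. Both separated the recipients as the tested probe did. The fourth Fn1 probe, at base 2699, did not, with -0.53 in WL replicate 1 and -0.50 in LW replicate 2. The 4 Fn1 probes put WL replicate 2 above WL replicate 1 by between 1.76-fold and 3.98-fold.

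Vcan encodes versican, a large proteoglycan that binds hyaluronan. On the tested probe, at transcript base 1428, it stood at -0.72 and -0.57 in LL lungs, -1.097 and 0.16 in WL lungs, -1.04 and -1.36 in LW lungs, and -0.93 and -0.83 in WW lungs. LL lungs were just above WW lungs, and the WL pair enclosed all other lungs except LW replicate 2. The probe at transcript base 459 gave a wider split, with -2.91 and -2.59 in LL lungs, -4.47 and -1.30 in WL lungs, -3.84 and -3.75 in LW lungs, and -3.93 and -3.29 in WW lungs. The third Vcan probe, at base 12207, read -1.08 and -0.68 in LL lungs, -1.82 and 1.36 in WL lungs, -2.15 and -1.93 in LW lungs, and -1.81 and -1.58 in WW lungs. WL replicate 2 was thus 9.02-fold and 9.04-fold above WL replicate 1 on these probes, against 2.39-fold on the tested one. The probes agreed in which lungs were high and disagreed in how far.

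Tnc encodes tenascin-C, which is scarce in resting adult lung and is made at sites of injury. Its level was -2.33 and -1.83 in LL lungs, -3.47 and 1.94 in WL lungs, -3.95 and -4.41 in LW lungs, and -4.30 and -4.32 in WW lungs. Every lung of a LysM-DTR recipient was above every lung of a WT recipient, with WL replicate 2 far above the rest and WL replicate 1 the lowest of its side. WL replicate 2 was 42.3-fold above WL replicate 1 on the tested probe and 38.3-fold above it on the printed probe at base 2590. That second probe read -2.13 and -1.40 in LL lungs, -3.63 and 1.63 in WL lungs, -3.67 and -5.03 in LW lungs, and -4.47 and -4.47 in WW lungs. It was not well above background on 1 of the 2 LW arrays and 1 of the 2 WW arrays. LL lungs averaged -2.08 ± 0.36 and WW lungs -4.31 ± 0.014 on the tested probe, a 4.68-fold difference. Over other choices of processing and arrays its log2 difference ran from 0.77 to 2.48, beside 2.23 in the main fit.

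Thbs1 encodes thrombospondin-1, a platelet and tissue glycoprotein that can activate latent TGF-beta. Levels were 3.28 and 3.51 in LL lungs, 2.26 and 6.12 in WL lungs, 2.22 and 2.62 in LW lungs, and 2.70 and 2.22 in WW lungs. LL lungs were above LW and WW lungs, while the WL pair held one lung among the LW and WW lungs and the other above all. The WL lungs differed by 14.5-fold on this probe and by 9.33-fold on the other Thbs1 probe. The averages were 3.40 ± 0.16 in LL lungs and 2.46 ± 0.34 in WW lungs (SD, n = 2 each).

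Thbs2, the related thrombospondin-2 gene, was well above background only in LL and WL lungs, on all 4 arrays. Its probe read -4.10 and -3.87 in LL lungs, -4.51 and -3.62 in WL lungs, -5.13 and -4.95 in LW lungs, and -6.13 and -5.54 in WW lungs. The LL and WL lungs overlapped one another and stood clear of the 4 lungs of WT recipients. It passed the filter on dim probes only through LL and WL, the groups in which it was high, so its differences from LW and WW are conditioned by that filter. Because the LW and WW values are at background, differences from them are given as lower bounds. Each bound sets the mean of the bright group against the lowest signal found well above background on the dim group's arrays, or the probe's own value where that was higher. The bounds hold only for the data as processed. With normexp background correction the log2 difference of LL minus WW was 0.22, which is below its bound.

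Spp1 encodes osteopontin, an adhesive phosphoprotein made by macrophages and epithelial cells among others. It stood at 2.92 and 3.29 in LL lungs, 2.65 and 5.56 in WL lungs, 2.99 and 3.33 in LW lungs, and 3.38 and 3.60 in WW lungs. The other 7 lungs lay within 1 unit of one another, and WL replicate 2 stood above them. WL replicate 2 was 7.50-fold above WL replicate 1, which was the lowest of the 8.

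Postn, which encodes periostin, ran the other way. Its level was 1.99 and 1.73 in LL lungs, 2.42 and 2.38 in WL lungs, 2.79 and 2.73 in LW lungs, and 2.77 and 2.41 in WW lungs. On this tested probe the LL lungs were the lowest of the 8, and the WL lungs stood between them and the LW lungs. On the Postn probe at base 5163, WL replicate 2 was the lowest at -3.51, below the LL lungs at -3.17 and -2.95. LL lungs averaged 1.86 ± 0.19 and WW lungs 2.59 ± 0.26, a 1.66-fold lower mean in LL. The 4 Postn probes gave log2 differences of LL minus WW between -0.73 and -0.34.

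Sparc encodes the collagen-binding protein SPARC. It read 9.05 and 9.13 in LL lungs, 8.66 and 8.79 in WL lungs, 8.60 and 8.55 in LW lungs, and 8.71 and 8.54 in WW lungs. On this tested probe the LL lungs were the highest and the other 6 lungs lay within a narrow band. The WL lungs differed by 1.09-fold on it and by 1.35-fold on the probe at base 980. On the probe at base 597, WW replicate 2 at -1.78 was above LL replicate 2 at -1.80. The 3 Sparc probes gave LL minus WW differences between 0.25 and 0.75 on the log2 scale.

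Lox, the lysyl oxidase gene, stood at 3.34 and 4.10 in LL lungs, 1.24 and 3.74 in WL lungs, 1.27 and 1.65 in LW lungs, and 1.77 and 1.37 in WW lungs. WL replicate 2 lay between the LL lungs, and WL replicate 1 lay just below the LW and WW lungs. On the second Lox probe, at base 3639, WL replicate 2 read 1.57, above the LL lungs at 0.73 and 1.53. The WL lungs differed by 5.65-fold on the tested probe and by 9.75-fold on the second. Eln, the elastin gene, read 2.68 and 3.20 in LL lungs, 0.39 and 2.02 in WL lungs, 0.94 and 0.80 in LW lungs, and 0.72 and 0.59 in WW lungs. Here both LL lungs were above WL replicate 2, which in turn was above the LW and WW lungs. Lox averaged 3.72 ± 0.54 in LL lungs and 1.57 ± 0.28 in WW lungs, a 4.44-fold difference. For Eln the means were 2.94 ± 0.37 in LL lungs and 0.66 ± 0.087 in WW lungs, a 4.87-fold difference.

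With receptor in marrow and recipient (LL against WW), the 10 genes had a median log2 difference of 0.86, or 0.83 with Thbs2 at its bound, beside 0.03 over all genes. Limma fitted to all 8 arrays, with Benjamini-Hochberg adjustment over all genes, called 1 of the 10 as higher in LL, and that was Thbs2, the gene kept by the filter only through the groups where it was high. Over all genes 3.13% were called in either direction and 1.21% as higher. As processed, Thbs2 rose by at least 1.84-fold in LL lungs, with a mean of -3.98 in LL and -5.83 in WW (adjusted p = 0.0471). Its call was lost, at adjusted p from 0.104 to 0.245, when any one of the LL, LW or WW arrays was left out, and also with no detection filter (0.0794) and with normexp background correction (0.264). The remaining 9 genes did not pass, although 5 of the 10 had an unadjusted p under 0.05, beside 24.8% of all genes. Eln came nearest with a log2 difference of 2.28 (SE 0.50, adjusted p = 0.0727), and Postn followed with -0.73 (SE 0.18, adjusted p = 0.0885). For Lox the difference was 2.15 (SE 0.77, adjusted p = 0.166) and for Tnc it was 2.23 (SE 1.55, adjusted p = 0.391). Adjusted p lay between 0.128 and 0.794 for Sparc, Fn1, Thbs1, Vcan and Spp1. Groups did not overlap for any of the 10 genes, 8 higher and 2 lower in LL, where 37% of all genes were higher and 32.4% lower without overlap.

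The spread in this fit is shared by all groups, and the WL pair enters it. In the fit without the WL arrays, 8 of the 10 genes passed for LL against WW, beside 32.1% of all genes. In LL 7 rose (17.3% of all genes), and Postn fell (14.8% of all genes). The 7 include Thbs2, which the filter kept only through groups where it was high, so its call here is no independent support. The adjusted p was 0.00314 for Eln, 0.00416 for Tnc, 0.00545 for Thbs2, 0.007 for Fn1 and 0.00815 for Lox. It was 0.0264 for Sparc, 0.028 for Postn and 0.033 for Thbs1, while Vcan (0.277) and Spp1 (0.185) did not pass. The differences themselves were identical in both fits. For Tnc the SE was 0.23 without the WL arrays and 1.55 with them. The plot of both fits shows the intervals.

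**Figure D2:**
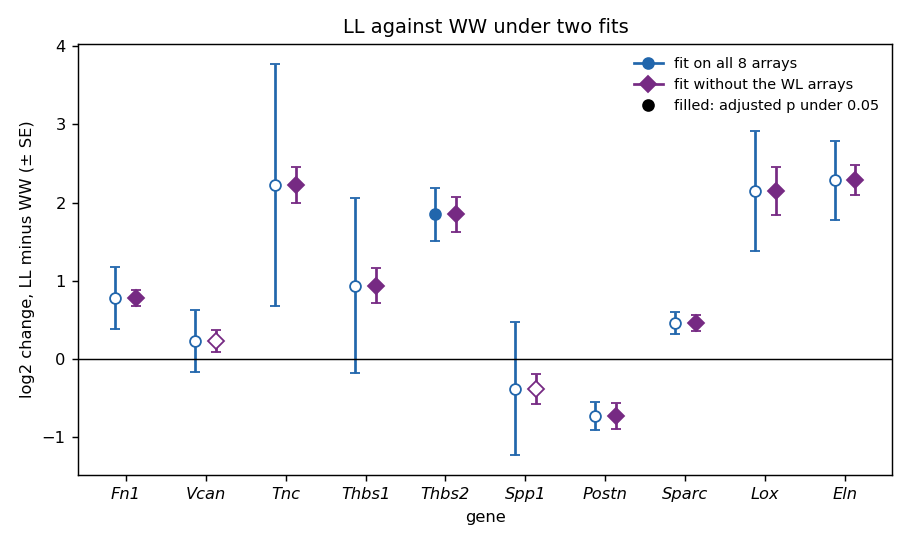
Log2 difference of LL minus WW for each gene (y axis) with its standard error, in the fit to all 8 arrays (circles) and in the fit without the WL arrays (diamonds). Filled symbols passed an adjusted p of 0.05. Only Thbs2 is filled in the fit to all arrays, and 8 genes are filled in the other.

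Against lungs with receptor in the marrow alone (LL against LW), the LL arrays are the same as in LL against WW. Both LL lungs were above both LW lungs for 8 of the 10 genes (40.3% of all genes) and below them for Postn (31.6%). None of the 10 genes was called by limma on all arrays, beside 2.8% of all genes, although 6 had an unadjusted p under 0.05, beside 25.7% of all genes. Log2 differences were 2.27 for Lox, 2.10 for Tnc, 2.07 for Eln, 1.02 for Fn1, 0.98 for Thbs1, 0.55 for Vcan and 0.52 for Sparc. Postn gave -0.90 (SE 0.18, adjusted p = 0.0596), and Thbs2 was at least 1.51-fold higher in LL (adjusted p = 0.137). Without the WL arrays 9 of the 10 passed, all but Spp1, beside 32.8% of all genes. Thbs2 is among the 9, and the filter on dim probes conditions its call here too.

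Receptor in the recipient alone (WL against WW) gave no call among the 10 genes, beside 0.00387% of all genes. One member, Thbs2, had an unadjusted p under 0.05, beside 8.18% of all genes. Thbs2 was at least 1.74-fold higher in WL (adjusted p = 0.335). Mean differences were 3.54 (SE 1.55) for Tnc, 1.73 (SE 1.12) for Thbs1, 0.96 (SE 0.40) for Fn1 and 0.92 (SE 0.77) for Lox. These means stand for mice far apart. Without WL replicate 1, when the lone WL mouse is assumed to vary like the other groups, 8 of the 10 genes were called higher, beside 37.7% of all genes called. Without WL replicate 2 none of the 10 was, beside 0.00387% of all genes. Both WL lungs were above both WW lungs for Fn1, Tnc and Thbs2, where 17.5% of all genes were higher without overlap.

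The difference between the WL lungs was large for this set. On the tested probes, WL replicate 2 exceeded WL replicate 1 by over 1 log2 unit for 7 of the 10 genes, beside 8.3% of all genes. No other pair differed that far for any of the 10 on these probes. On the Tnc probe at base 2590 the LW lungs did, at -3.67 and -5.03. Tnc was at the 99.9th percentile of all genes for this difference, Thbs1 at the 99.8th, Spp1 at the 99.4th and Lox at the 99.1st. Thbs2, Sparc and Postn differed by less than 1 unit. Postn was level at 0.97-fold on its tested probe and ran from 0.59-fold to 0.89-fold on its other probes. WL replicate 2 was the highest of the 8 lungs for 6 of the 10, beside 24.1% of all genes. It was above both LL lungs for 7 of the 10, beside 36.3% of all genes, and exceeded them by over 1 unit for Tnc, Thbs1 and Spp1, beside 3.16% of all genes. WL replicate 1 lay inside the range of the LW and WW lungs for 4 of the 10, beside 54.2% of all genes. With 1 mouse on each side this split has no test.

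**Figure D3:**
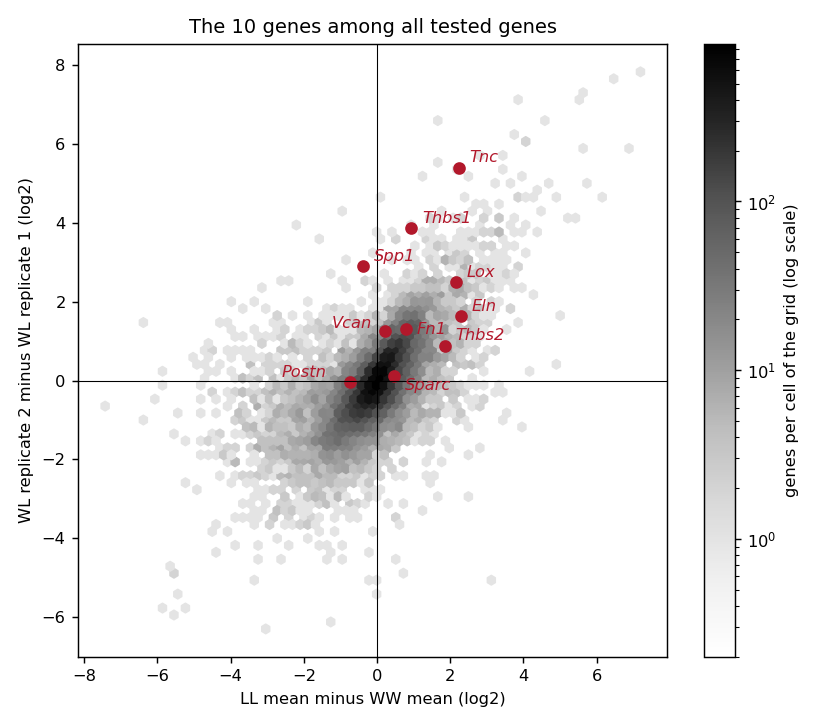
Log2 difference of LL mean minus WW mean (x axis) against log2 difference of WL replicate 2 minus WL replicate 1 (y axis). Grey shading counts all tested genes per cell of the grid on a log scale, and red points are the 10 genes. Of the 10, Tnc, Thbs1 and Spp1 lie highest, Eln, Tnc and Lox farthest right, and Postn and Sparc near 0 on the y axis.

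All probes of a gene gave the same sign for LL minus WW, as the plot of the 24 probes shows. Tested probe by probe, with adjustment over all detected probes (a check chosen after the data were seen), only the Thbs2 probe passed for LL against WW (adjusted p = 0.0484). The second Eln probe gave 2.01 (adjusted p = 0.108), the second Lox probe 2.44 (adjusted p = 0.194) and the second Tnc probe 2.71 (adjusted p = 0.312).

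**Figure D4:**
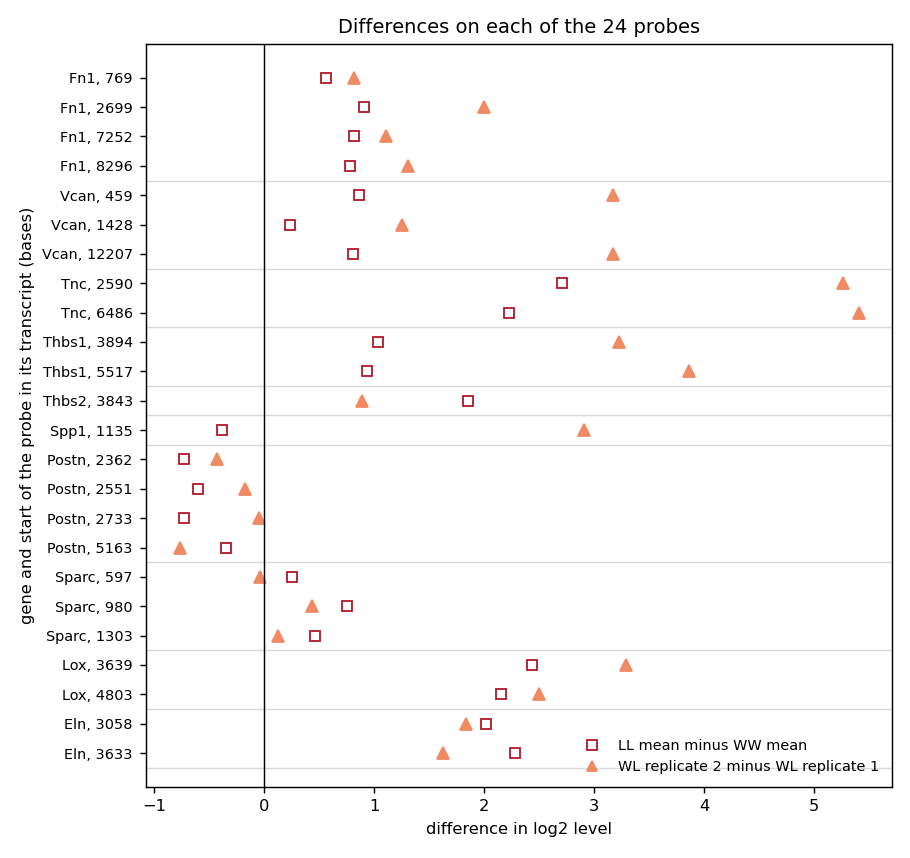
Log2 differences on each of the 24 probes (y axis, gene and first base of the probe in its transcript): LL mean minus WW mean as squares and WL replicate 2 minus WL replicate 1 as triangles (x axis). The triangles lie right of the squares for Tnc, Thbs1, Vcan and Spp1, and left of them for Thbs2.

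Averaged over donors, LysM-DTR recipients against WT recipients gave no call among the 10 genes, beside 1.27% of all genes, although 7 had an unadjusted p under 0.05, beside 31.2% of all genes. Thbs2 was at least 1.62-fold higher in LysM-DTR recipients (adjusted p = 0.0563). On the tested probes, all 4 lungs of LysM-DTR recipients were above the other 4 for Fn1, Tnc and Thbs2, beside 8.72% of all genes. For Thbs2 the filter on dim probes conditions this separation, and for Fn1 the probe at base 2699 overlapped. Log2 differences were 2.82 for Tnc (SE 1.098, adjusted p = 0.148) and 0.99 for Fn1 (SE 0.28, adjusted p = 0.112). This rests on the WL mice: without WL replicate 1 all 10 genes were called, beside 48.4% of all genes. Without WL replicate 2 the 4 genes Fn1, Tnc, Thbs2 and Eln were called, beside 13.3% of all genes.

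The marrow genotype was compared within LysM-DTR recipients (LL against WL) and within WT recipients (LW against WW). For LL against WL no member was called, beside 1.72% of all genes, and 3 had an unadjusted p under 0.05, beside 14.5% of all genes. Those 3 were Eln at 1.73 (SE 0.50, adjusted p = 0.189), Sparc at 0.36 (SE 0.14, adjusted p = 0.309) and Postn at -0.54 (SE 0.18, adjusted p = 0.243). Fn1, Vcan, Tnc, Thbs1, Thbs2, Spp1 and Lox turned direction with the WL mouse used, Lox reaching only -0.02. Without WL replicate 2 Tnc was higher in LL by 1.39 (adjusted p = 0.0314) and Thbs1 by 1.14 (adjusted p = 0.0474), and without WL replicate 1 the differences were -4.01 and -2.72.

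For LW against WW no member was called, beside 0.0542% of all genes, and none had an unadjusted p under 0.05, beside 2.2%. The fit without the WL arrays called none of the 10 either, beside 0.00774% of all genes. Differences among the 9 genes above background there ran from -0.33 for Spp1 to 0.22 for Eln. The donor by recipient interaction asks whether the marrow difference changes with the recipient. No member was called, beside 0.0619% of all genes, and Postn was the one member with an unadjusted p under 0.05, beside 9.14% (-0.71, SE 0.25, adjusted p = 0.470).

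Other genes of the pathway were taken from 6 lists, of which the TGF-beta list shares members such as Ctgf and Ltbp2 with the others. In LL against WW limma on all arrays called 3.13% of all genes in either direction. None of 15 hyaluronan and versican partners was called. Of these, 13 were above 0, and the median log2 difference was 0.69, beside 0.03 over all genes. Adamts5 and Adamts9, proteases that cleave versican, gave 1.13 (SE 0.21, adjusted p = 0.0506) and 1.35 (SE 0.27, adjusted p = 0.0566). Without the WL arrays 9 of the 15 rose and none fell, in a fit that called 17.3% of all genes higher and 14.8% lower, the shares against which each list's count without these arrays is set here. Adamts9 rose in LL against LW in the fit to all arrays (1.59, SE 0.27, adjusted p = 0.0422).

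None of 20 elastic fibre assembly genes was called for LL against WW, with a median of 0.27. Fbln2, a fibulin of the elastic fibre surface, gave 1.30 (SE 0.32, adjusted p = 0.0896), and Ltbp4, which binds latent TGF-beta, gave -1.03 (SE 0.24, adjusted p = 0.0817). Without the WL arrays 7 of the 20 rose and 4 fell. Of 18 matricellular relatives none was called (median 0.29). Tgfbi, an integrin-binding matrix protein, gave -2.61 (SE 0.51, adjusted p = 0.0544), and Spock2, a SPARC-family proteoglycan, gave 1.07 (SE 0.24, adjusted p = 0.0768). Spock2 rose in LL against LW (1.53, SE 0.24, adjusted p = 0.0372), and Tgfbi fell in LL against WL (-3.44, SE 0.51, adjusted p = 0.0357). Without the WL arrays 7 relatives rose and 4 fell in LL against WW.

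Among 14 matrix receptors, Itga4, an integrin chain of leukocytes that binds fibronectin, fell. Its level was -1.01 and -0.52 in LL lungs, 1.98 and 0.97 in WL lungs, 1.72 and 2.02 in LW lungs, and 1.87 and 2.11 in WW lungs. The LL lungs stood below the other 6 (LL against WW -2.76, SE 0.36, adjusted p = 0.0216). None of the other receptors was called, and the median of the 14 was 0.44. Without the WL arrays 6 rose and 2 fell. None of 10 fibrin matrix genes was called (median 0.43), with F13a1, the clot-crosslinking factor XIII A chain, at -3.97 (SE 0.80, adjusted p = 0.0582) and Plat, a plasminogen activator, at 2.27 (SE 0.79, adjusted p = 0.160). None of 13 TGF-beta response genes was called (median 0.10), with Tgfbr2, a TGF-beta receptor, at 0.98 (adjusted p = 0.0905) and Cthrc1, a secreted matrix protein, at -1.22 (adjusted p = 0.123). Without the WL arrays 4 rose and 3 fell in the fibrin list, and 4 rose and 1 fell in the TGF-beta list.

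In WL against WW none of the 6 lists held a called gene. Genes named here for their difference between the WL mice were chosen after their values were seen. Adamts4, another versican-cleaving protease, was 95.3-fold higher in WL replicate 2 than in WL replicate 1. Wisp1, a matricellular relative, was 14.5-fold higher, and Itga5, the fibronectin receptor chain, 8.22-fold. WL replicate 2 was over 1 unit above WL replicate 1 in 8.3% of all genes and over 1 unit below it in 9.23%. For the lists these counts were 6 above and 1 below of 10 fibrin matrix genes, 5 above and 2 below of 14 receptors, and 4 above and 0 below of 15 hyaluronan and versican partners. They were 5 above and 4 below of 18 matricellular relatives, 5 above and 1 below of 20 elastic fibre genes, and 3 above and 0 below of 13 TGF-beta response genes.

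**Figure D5:**
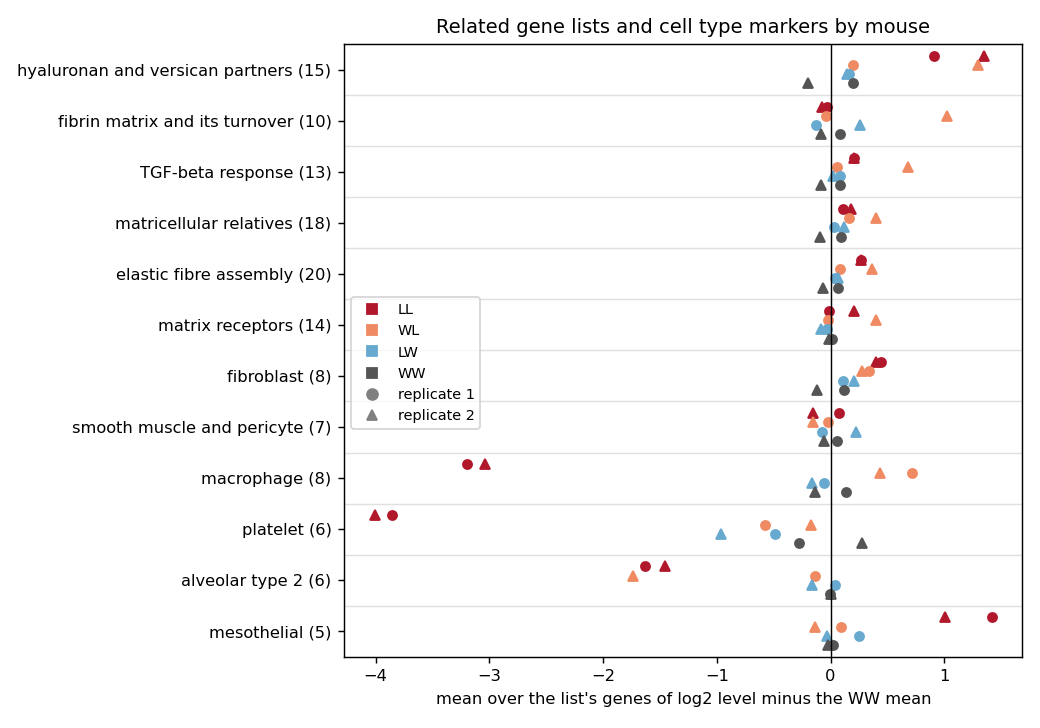
Mean over each list's genes of the log2 level minus the WW mean (x axis), for 6 related gene lists and 6 sets of cell type markers (y axis, genes measured in parentheses), 1 symbol per mouse. Circles are replicate 1 and triangles replicate 2. The LL lungs lie far left for macrophage and platelet markers and right for mesothelial markers, and WL replicate 2 lies left with the LL lungs for alveolar type 2 markers.

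Some cell type markers moved with these groups, and in bulk RNA fewer cells of a type and less RNA per cell cannot be told apart. For LL against WW the fit to all arrays called 3.13% of all genes in either direction. In that fit 7 of 8 measured macrophage markers fell in LL. Their summed signal, relative to the 75th percentile, was 12.8 to 14.4 in LL lungs and 62.1 to 65.2 in WL lungs. It was 41.5 to 50.05 in LW lungs and 48.8 to 50.9 in WW lungs. Of 6 platelet markers 5 fell, with sums of 0.76 to 0.92 in LL lungs, 10.6 to 18.5 in WL lungs, 8.08 to 13.8 in LW lungs and 12.7 to 18.3 in WW lungs. No macrophage marker was at background on any array, whereas 4 and 2 of the 6 platelet markers were above it in the LL lungs.

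Fibroblast markers, 8 of 8 measured, had summed signals of 161 to 176 in LL lungs, 128 to 159 in WL lungs, 114 in both LW lungs and 88.7 to 108 in WW lungs, and none was called for LL against WW in the fit to all arrays. In the fit without the WL arrays 5 of the 8 rose in LL against WW and none fell. The other 3 were Lum, Tcf21 and Npnt, with mean log2 differences of -0.39, -0.62 and -0.31. The summed signals of smooth muscle and pericyte markers overlapped between groups, at 110 to 138 in LL lungs and 110 to 121 in WW lungs. Single markers could still differ. Without the WL arrays 1 of the 7 fell in LL against WW and none rose. In LL against LW 1 of the 7 fell in the fit to all arrays, which called 2.8% of all genes. Mesothelial markers summed to 79.0 to 81.8 in LL lungs, 23.8 to 50.5 in WL lungs, 24.7 to 29.5 in LW lungs and 23.98 to 26.0 in WW lungs. The sum of 50.5 was that of WL replicate 2, yet its mean log2 level over the 5 markers was -0.14 relative to WW. Of the 5, 1 (Msln) was over 1 unit above WL replicate 1 there and 1 was over 1 unit below it. In LL against WW 1 of 5, Wt1, rose in the fit to all arrays, which called 1.21% of all genes higher. Without the WL arrays 4 of 5 rose, beside 17.3% of all genes. Of 6 alveolar type 2 markers none was called for LL against WW in the fit to all arrays, and 5 fell without the WL arrays. The alveolar type 2 markers of WL replicate 2 summed to 466, against 1230 in WL replicate 1, and compared with 513 to 604 in LL lungs and 1340 to 1452 in WW lungs. No endothelial marker of 6 was called for LL against WW in the fit to all arrays. Without the WL arrays 1 rose and 1 fell. Their mean log2 level relative to WW was -0.07 and -0.05 in LL lungs and -0.09 and -0.24 in WL lungs. Neutrophil markers, 6 measured, also had no call in the fit to all arrays, with 1 up and 1 down without the WL arrays. Their mean relative to WW was -1.17 and -0.06 in LL lungs and -1.15 and 0.42 in WL lungs. It was -0.78 and 0.05 in LW lungs and -0.38 and 0.38 in WW lungs, higher in replicate 2 each time. WL replicate 2 was over 1 unit above WL replicate 1 for 5 of the 6, beside 8.3% of all genes. The part of these cell types in the levels of the 10 genes was not tested.

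For each gene the tested genes with the most similar pattern over the 8 arrays were looked up, as a description of arrays that share 1 slide. Fn1 ran with Mthfd2 (Pearson r = 0.998, n = 8) and Tnc with Snrpg (r = 0.998). Thbs1 ran with Exosc4 (r = 0.997) and Pdhb (r = 0.994), Lox with Lrrc8a (r = 0.998) and Coq6 (r = 0.997), and Sparc with Isg20 (r = 0.995) and Sdhc (r = 0.988). Thbs2 ran with Stil (r = 0.985) and Ltf (r = 0.979), Vcan with Olfr153 (r = 0.990) and Picalm (r = 0.985), and Postn with Tfcp2 (r = 0.984). Without the 2 lungs farthest from the median, these values were between 0.924 and 0.998. Spp1 ran with Tshz1 at 0.979, and at 0.683 without both WL lungs. The matches of Eln, and 1 each for Fn1, Tnc, Spp1 and Postn, were array identifiers and are not named.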

How the data were processed

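Whole-lung RNA from 8 mice in 4 groups of 2 was labelled with Cy3 and read on one-colour Agilent arrays. The deposited array files hold processed intensity from Agilent Feature Extraction 11.5.1.1, per the submitters' processing notes, background-subtracted with no scaling between arrays, per the file headers. The deposited series table holds log2 values, found here to equal log2 of the processed intensity minus a constant per array, with no centring per gene; its column medians lay between -2.93 and -2.69.

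Of 59305 non-control spots, 0 to 4 per array marked non-uniform were left out, and no spot was saturated. Spots of a probe were averaged (56605 probes, 37074 gene names) and each array's 75th percentile of log2 was subtracted. Probes that rose well above background in both mice of any 1 group were kept (39602), and the probe with the highest mean stood for a gene (25830 genes). All 10 symbols matched RefSeq names on GRCm38.p6. Probe sequences and mm9 positions come from the array files.

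Tests used limma 3.58.1 (R 4.3.3), with 4 group means on 8 arrays (residual degrees of freedom 4, prior 2.19). Adjusted p-values are Benjamini-Hochberg values across the 25830 genes, and a gene was called at an adjusted p under 0.05. Figures used Python 3.11.15. The script was tested on simulated data. The 10 genes, the lists and the tests were chosen with earlier results of these data known. Named genes are all members, up to 4 called genes of each list with the largest change, or, in a list with no call, the 2 genes of lowest p, and the 2 genes most alike to each member. Adamts4, Wisp1, Itga5, Lum, Tcf21, Npnt and Msln fall outside this rule and were chosen after their values were seen. Tnr, Ibsp, Has3, Fgb, Emr1 and Chi3l3 had no measured probe under these names. Alternatives changed the background correction, normalization, filter, probe choice, source of values, replicate block and arrays in the fit. The number of arrays limits the precision.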

Additional observations from a re-analysis of the deposited data

How the results depend on the processing

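Of 1123 recomputed member values, 984 kept their direction and side of the threshold, 94 passed in addition, 8 no longer passed, 2 were called with the opposite sign, and 35 changed sign while called in neither fit. For LL against WW, 1 member was called in the fit to all arrays. It was 0 without a detection filter, 0 with normexp correction and 0 among probes above background on all 8 arrays, where Thbs2 was not tested. It was 6 with only the compared arrays and 8 without both WL arrays. For LL against LW the count of 0 became 8 with only the compared arrays and 9 without both WL arrays. For LysM-DTR against WT recipients it became 1 (Thbs2) with quantile normalization and 1 (Thbs2) with the replicate block. The replicate block changed no other call of a member. For LL against WW it called 447 genes, against 808 without it, and 414 were called in both. Deviations of same-numbered mice correlated weakly over all genes between groups (from -0.097 to 0.190). Such correlations cannot decide whether the numbers pair the mice, and the main fit used no pairing.

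Leaving out 1 array at a time gave 0 to 8 members called for LL against WW, 0 to 9 for LL against LW, 0 to 4 for LL against WL, 0 to 8 for WL against WW, 0 to 10 for LysM-DTR against WT recipients, 0 to 2 for the interaction and 0 for LW against WW. The high counts came without a WL array. Over all genes these ranges were 4 to 8483 for LL against LW, 23 to 5091 for LL against WL, 0 to 9740 for WL against WW, 0 to 12512 for the recipients, 0 to 2209 for the interaction and 0 to 8 for LW against WW. By construction, leaving out either WL array gives LL against WW the same fit as leaving out both. In LL against WL the leave-one-out values ran from -4.01 to 1.39 for Tnc (-1.31 with all arrays) and from -2.72 to 1.14 for Thbs1 (-0.79 with all arrays).

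Over all genes, LL against WW called 808, against 400 without a detection filter, 8285 without both WL arrays, 6242 with only the compared arrays and 4 to 8285 leaving out 1 array. For Thbs2 the signal over background limits the value: its LL minus WW difference was 1.85 as processed and 0.22 with normexp. The size for Tnc also depended on these choices. Its LL minus WW difference was 2.23 as processed and ran from 0.77 to 2.48 over the alternatives.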
